A study of Mus musculus with 4 samples.

Results

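The genes described here are named for the proteins of the cytosolic ribosome. They were taken by name, as the rows called Rpl or Rps with a number and at most one closing letter a, x or l, together with Rplp0, Rplp1, Rplp2 and Rpsa. The rule found 83 of the 54446 gene rows, 51 of the large subunit and 32 of the small subunit. The rule itself uses names alone, so the 83 include 3 rows annotated as pseudogenes beside 80 protein-coding genes.

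RNA was sequenced from muscle stem cells (satellite cells) of C57BL/6 mice, isolated from the hindlimb and cultured in F10 medium with 10% HS and P/S. One group of 2 libraries was labelled as a knockdown of LncMyoD, a long non-coding RNA, with cells exposed to siRNA for 48 h before harvest. The other group of 2 libraries was labelled as control. The siRNA of the control group is not identified beyond that label, and the treatment text of the control samples also names LncMyod. LncMyoD itself was not analysed here, so the group labels were not checked against its level. Nothing in the labels says that the 2 libraries of a group came from separate cultures or animals. The p-values therefore measure the spread between these libraries, which may be technical.

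Ribosomal proteins are made in the cytoplasm, carried into the nucleolus and assembled there on ribosomal RNA into a large and a small subunit. The small subunit reads the messenger RNA, and the large subunit joins the amino acids. In vertebrates the messenger RNAs of most of these proteins start with a cytosine followed by a run of pyrimidines, the terminal oligopyrimidine (TOP) motif, through which their translation answers to the growth-regulating kinase mTORC1. Skeletal and heart muscle also use a paralogue, Rpl3l, in place of Rpl3.

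Values were deposited as FPKM, the fragments of a gene scaled by transcript length and by the mapped fragments of the library. They summed to between 317223 and 322496 per library, and between 10751 and 11090 rows stood at 1 FPKM or more. The values of single-exon genes moved in steps. If the largest step that fits is 1 base of 1 read, each FPKM on 1 kb of transcript had 36.7 to 41.1 reads' worth of bases (reads of 150 nt) behind it. A step of 0.5 times that size fits by construction as well and would give more reads. Mitochondrial genes took 2.74% to 3.24%. The 12 myogenic markers, among them Myod1 and Myog, summed to 11106 and 8531 FPKM in the knockdown libraries and to 12887 and 12333 in the controls. Most of these sums was Acta1 and Myog. Acta1 stood at 4888 and 3151 FPKM in the knockdown libraries and at 5326 and 5178 in the controls. Myog stood at 3406 and 2793 FPKM against 4196 and 3931. Of the 12, 11 had a mean of 1 FPKM or more. The one below was Pax7, at 1.40 and 0.63 FPKM in the knockdown libraries and 1.02 and 0.86 in the controls. Markers of other cells were low: the highest sum in any library was 7.85 FPKM for fibro-adipogenic cells, 2.66 for endothelial cells, 1.22 for macrophages and blood, 0.72 for Schwann cells and 2.72 for smooth muscle and pericytes. The fibro-adipogenic sums were 7.85 and 7.14 FPKM in the knockdown libraries and 5.50 and 5.96 in the controls. Within them Cd34, which satellite cells can also express, stood at 4.52 and 4.62 FPKM against 1.36 and 1.17 FPKM without overlap (limma adjusted p = 0.265). Col1a1 went the other way, also without overlap (limma adjusted p = 0.698). It stood at 3.20 and 2.18 FPKM in the knockdown libraries and at 3.76 and 4.70 in the controls. Pdgfra was listed at 0 in both knockdown libraries and in control replicate 2, and at 0.16 FPKM in control replicate 1. The endothelial genes Kdr and Tie1, the leukocyte gene Ptprc and the macrophage gene Adgre1 were listed at 0 in every library.

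The ribosomal protein genes were abundant and spanned a wide range. The 80 tested members, those with a mean of at least 1 FPKM, had a median level of 90.9 FPKM, at percentile 94.1 of the 10900 genes tested. Rplp0, the base of the stalk on which translation factors land, was highest at a mean of 1064 FPKM, followed by Rpl4, a protein lining the exit tunnel, at 920 FPKM. Rps6, the substrate of the S6 kinases, was also among the highest, at 359 FPKM. In the order of levels, 37 members had a mean of 100 FPKM or more, and 77 stood at 10 FPKM or more in every library. The lowest tested members were Rps12 at 8.04 FPKM and Rpl32l, annotated as a processed pseudogene, at 2.26 FPKM. The highest and lowest tested members, Rplp0 and the pseudogene row Rpl32l, differed 471-fold. Rows of near-identical copies, described below, held more than the member itself for 19 members. With its copies added, Rps12 had a mean of 16.5 FPKM. Rps28 had a mean of 13.7 FPKM alone and 51.3 FPKM with its copies. The order and range of levels therefore also depend on how reads were divided between members and copies. Neighbours in the order could overlap: Rplp0 and Rpl4 had library ranges of 934 to 1136 and 852 to 1002 FPKM. These are levels per length of transcript, and members have short transcripts, with a median of 637 nt against 1126 nt for all genes tested.

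**Figure D1:**
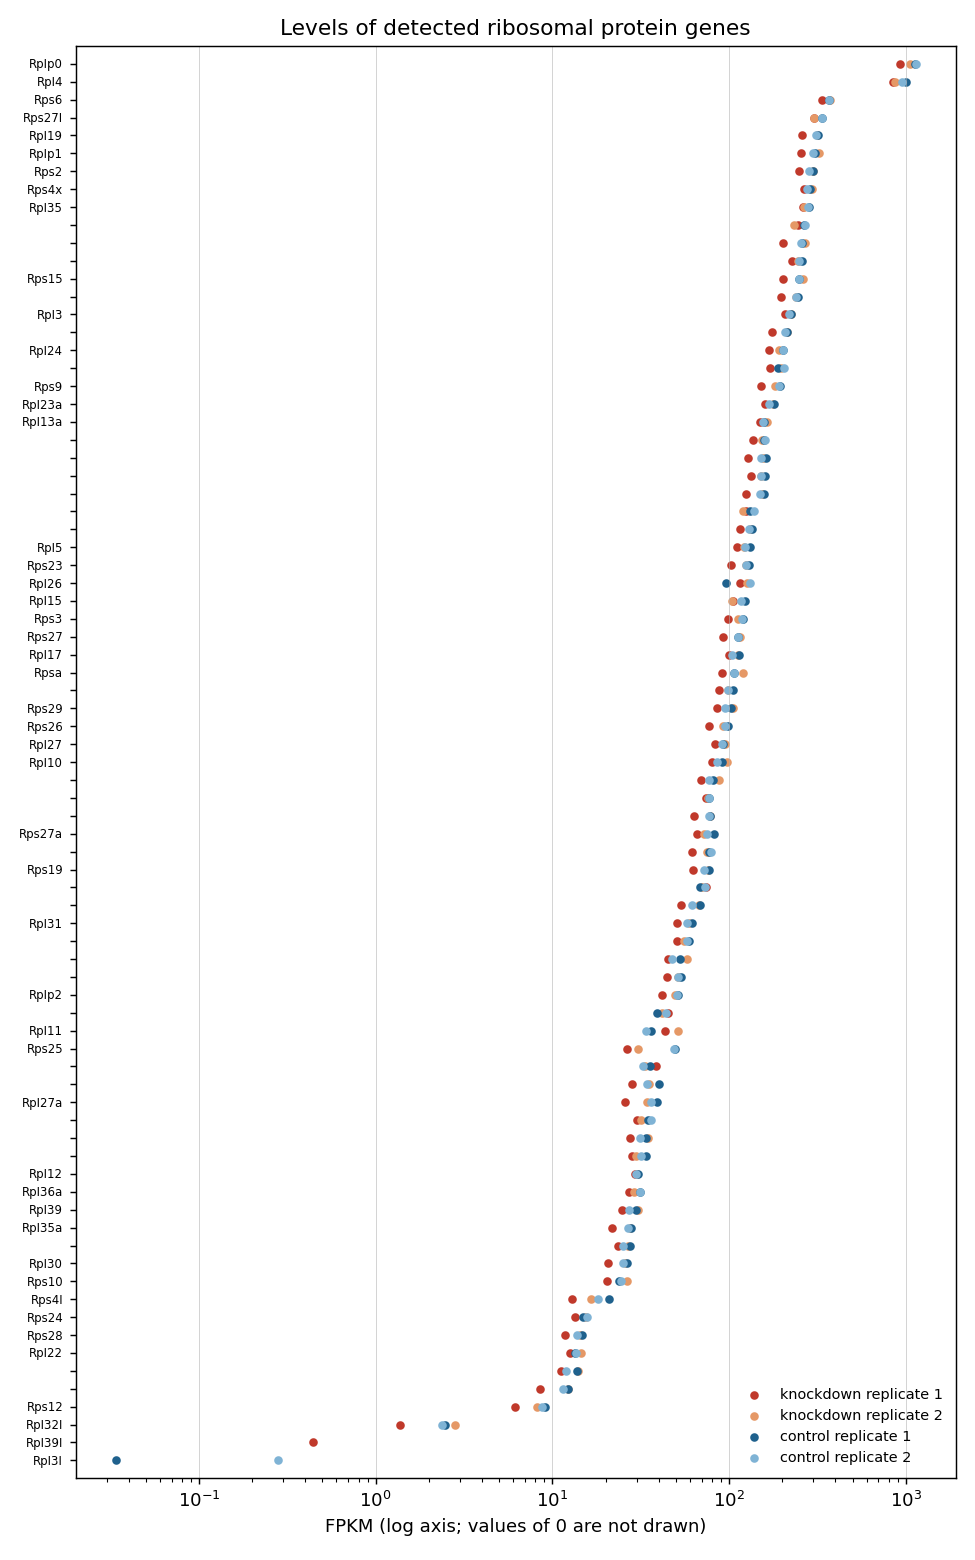
FPKM on a log axis of the ribosomal protein genes reported here with a value above 0, sorted by mean, with the genes of the text named, with one point per library. Levels run from Rplp0 at a mean of 1064 FPKM down to Rpl3l, which has points only for the 2 control libraries.

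As a share of all FPKM, the members took 3.11% and 3.49% in the knockdown libraries and 3.57% and 3.50% in the controls. Knockdown replicate 1 held the lowest share, and knockdown replicate 2 came close to the lower control. The ratio of large-subunit to small-subunit FPKM was 1.69 and 1.67 in the knockdown libraries and 1.71 and 1.72 in the controls. Both knockdown ratios lay slightly below both control ratios, and the difference was not tested. Rplp0 and Rpl4, the 2 highest members, carry much of the large-subunit sum, at means of 1064 and 920 FPKM. Both genes were lower in both knockdown libraries than in both controls. The ratio is one of sums, in which the highest members weigh most. The part of these 2 genes in its difference was not tested.

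The same library stood apart gene by gene. On the log2(FPKM + 1) scale, knockdown replicate 1 lay a median of -0.22 from the mean of the controls over the 80 members, while knockdown replicate 2 lay at 0.0016. Over all genes tested the same medians were 0.0077 and 0.05. Knockdown replicate 1 was below both controls for 75 of the 80 members, where 36.8% of all genes tested were. Knockdown replicate 2 was below both controls for 30 members, against 29.9% of all genes, and above both for 25, against 43.8%. The knockdown replicates differed from each other in a common direction: replicate 1 was lower than replicate 2 for 73 members, against 54.2% of all genes tested. The controls differed by less, with a median of 0.05 and control replicate 1 higher for 63 members.

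**Figure D2:**
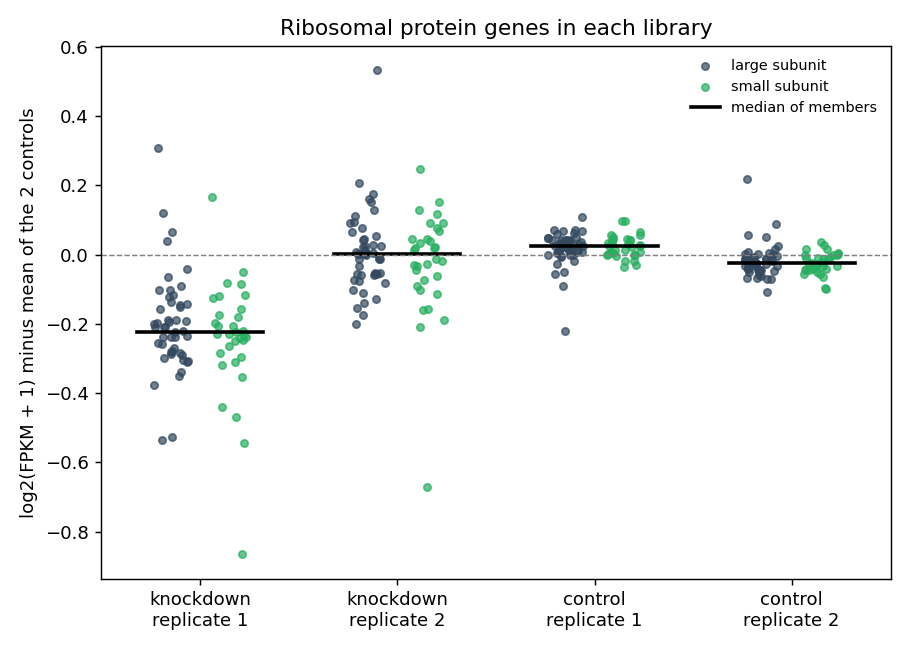
Each point is a tested ribosomal protein gene in one library, as its log2(FPKM + 1) minus the mean of the 2 controls, and the black bars are medians over both subunits. The points of knockdown replicate 1 centre on -0.22, while those of knockdown replicate 2 centre on 0.0016.

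No member passed the test of knockdown against control. By limma with Benjamini-Hochberg adjustment over 10900 genes, 0 of 80 members had an adjusted p under 0.05, where 0.055% of all genes (6 genes) did, 0.0459% lower and 0.00917% higher. At an unadjusted p under 0.05 there were 3 members, against 7.08% of all genes: Rps25 and Rpl4 were lower, as were 2.7% of all genes, and Rpl11 was higher, as were 4.39%. That count of 3 was 6 with scaling by a median ratio of genes, and the share of all genes in that fit is not given here. The log2 fold change was below 0 for 71 of the 80, against 45.2% of all genes, with a median of -0.12 against 0.03. Both knockdown libraries lay below both controls for 30 members, against 16.3% of all genes, and above both for 1 member, against 22.1%. The median and the count below 0 rest on knockdown replicate 1: without it the median of the members was 0.0016 with 39 below 0, and without knockdown replicate 2 it was -0.22 with 75 below 0. Without knockdown replicate 1, knockdown replicate 2 lay below both controls for 30 members, against 29.9% of all genes. Without knockdown replicate 2, knockdown replicate 1 did so for 75, against 36.8%. With 1 control left out, both knockdown libraries lay below the control kept for 33 members (without control replicate 1) and 49 members (without control replicate 2). Scaling by a median ratio of genes gave 46 below both controls. Shares of all genes are not given here for the counts of 33, 49 and 46.

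Both subunits had similar medians, and their difference was not tested. The 48 tested large-subunit members had a median log2 fold change of -0.13, with 41 below 0 and 17 without overlap below the controls. The 32 small-subunit members had a median of -0.11, with 30 below 0 and 13 without overlap. Of all genes tested, 45.2% were below 0 and 16.3% lay below both controls without overlap. Without knockdown replicate 1 the medians were 0.0016 and 0.0015, with 23 large-subunit and 16 small-subunit members below 0. For 70 of the 80 members the 95% interval of the log2 fold change lay within 0.5 of 0, and for 3 it excluded 0. In bulk RNA, fewer cells of a type and less of an RNA per cell cannot be told apart. The myogenic markers were lower as well, and none was called: all 11 tested had a log2 fold change below 0, with medians of -0.25 in knockdown replicate 1 and -0.38 in knockdown replicate 2 from the control mean. Of the 11, 7 lay below both controls without overlap, against 16.3% of all genes tested. In knockdown replicate 1, Tnnt3, Myh3 and Mylpf lay above the control mean, by 0.17, 0.27 and 0.06. The part of the myogenic markers in the ribosomal protein values was not tested.

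**Figure D3:**
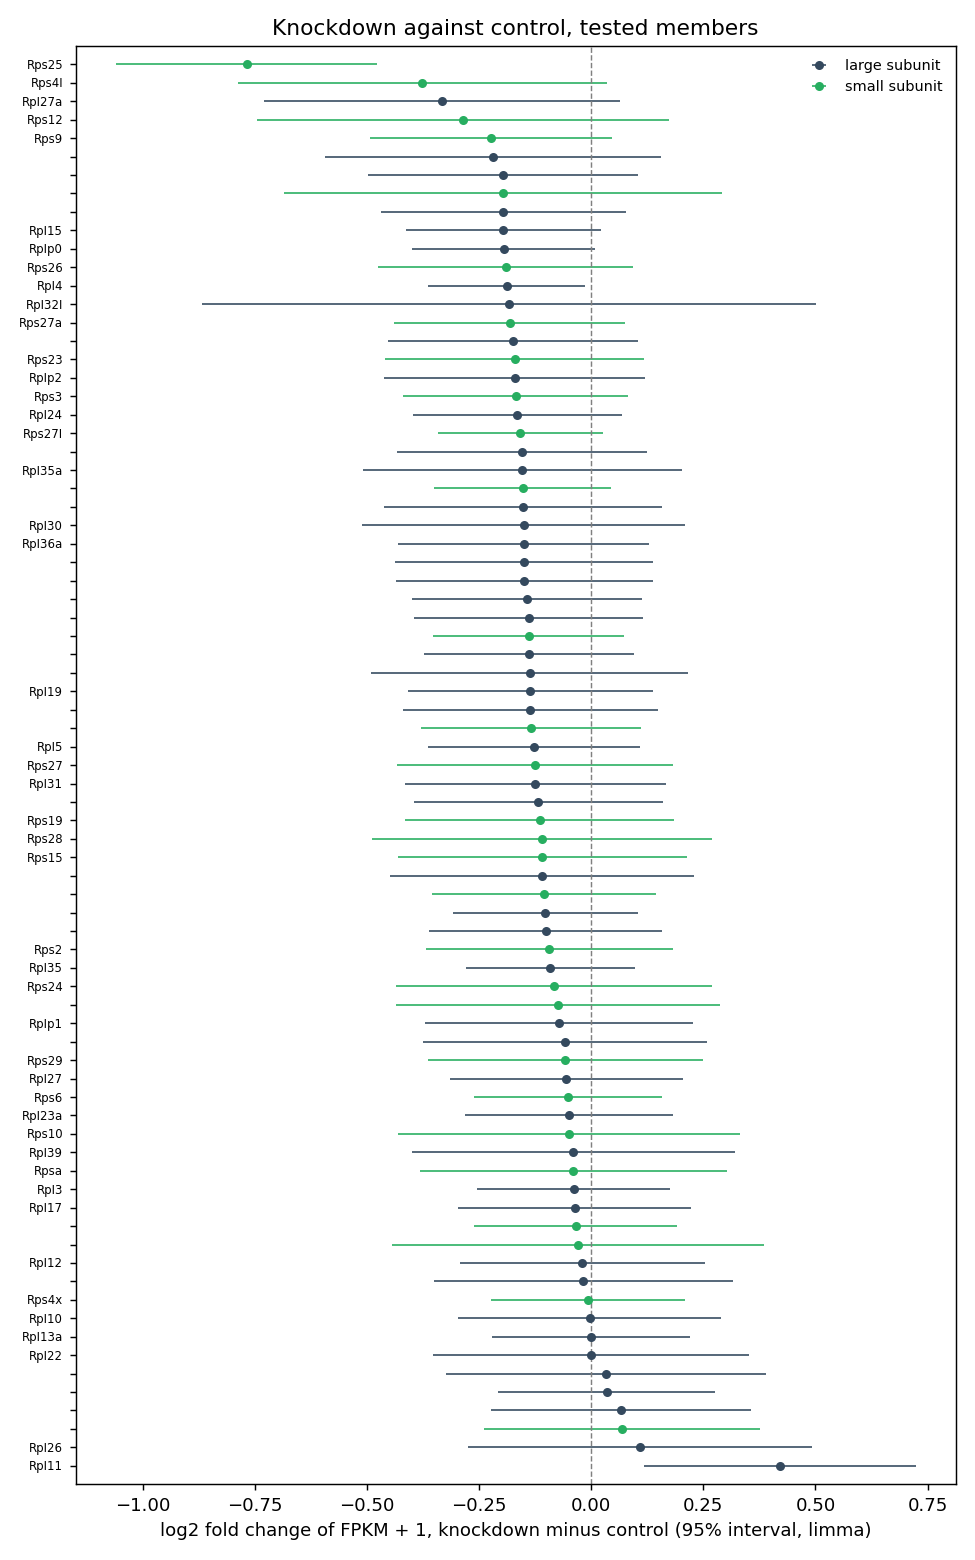
Log2 fold change of FPKM + 1, knockdown minus control, with its 95% interval from limma for the tested members reported here, coloured by subunit, with the genes of the text named. Most points lie slightly below 0 with intervals across it, and Rps25, Rpl4 and Rpl11 have intervals that exclude 0.

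Rps25, a small-subunit protein known for its part in initiation at internal ribosome entry sites, had the largest difference. Its row (ENSMUSG00000009927, chr9:44407139-44410427, plus strand, GRCm38, 7 annotated transcripts) stood at 26.6 and 30.6 FPKM in the knockdown libraries and at 49.6 and 49.0 FPKM in the controls. The groups did not overlap, and both knockdown libraries lay well below the controls. The means were 28.6 ± 2.83 and 49.3 ± 0.44 FPKM (SD, n = 2 each). The log2 fold change was -0.77 (SE 0.12; limma adjusted p = 0.265), and it was -0.67 without knockdown replicate 1 and -0.87 without knockdown replicate 2. Of its exonic bases, 24.8% are shared with other rows, among them Trappc4, which stood at 24.6 and 28.1 FPKM in the knockdown libraries and at 22.3 and 24.6 in the controls. The sources used here do not say whether strand was used in counting, so reads in the shared bases cannot be told apart.

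Rpl11 was the 1 member with both knockdown libraries above both controls. With Rpl5 and the 5S ribosomal RNA it forms a particle that can also bind Mdm2, the ubiquitin ligase of p53. Its row (chr4:136028265-136053428, minus strand, GRCm38, 10 annotated transcripts) stood at 43.5 and 51.1 FPKM in the knockdown libraries and at 36.0 and 34.0 FPKM in the controls. The log2 fold change was 0.42 (SE 0.12; limma adjusted p = 0.622). Its partner Rpl5 stood at 111 and 122 FPKM in the knockdown libraries and at 131 and 123 FPKM in the controls, a log2 fold change of -0.13 (limma adjusted p = 0.808). The partners in the particle thus had opposite signs, and neither passed the test.

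Rows of near-identical copies bear on these values. Sequences at least 95% identical to a member over at least 200 nt and 50% of the copy were found in 592 other rows, 578 of them annotated as pseudogenes, for 72 members. These copies summed to 38.1% and 39.3% of the members' own FPKM in the knockdown libraries and to 38.2% and 37.9% in the controls. For 19 members the copies held more than the member itself. Which of these reads came from the member cannot be told apart. With the copies added, Rpl11 stood at 84.0 and 97.3 FPKM in the knockdown libraries and at 80.9 and 83.1 FPKM in the controls, and its log2 fold change dropped to 0.14 (limma adjusted p = 0.811). Rps25 with its copies stood at 43.4 and 50.5 FPKM against 71.1 and 69.0 FPKM, still without overlap, at -0.57 (limma adjusted p = 0.526). The rows of 10 members, among them Rps25, Rps10, Rpl23a, Rpl5, Rpl30, Rpl35, Rpl31, Rpl13a and Rpl24, share over 20% of their exonic bases with other annotated rows. With copies added, 5 tested members shifted by more than 0.1, and 3 changed sign or reached 0.

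**Figure D4:**
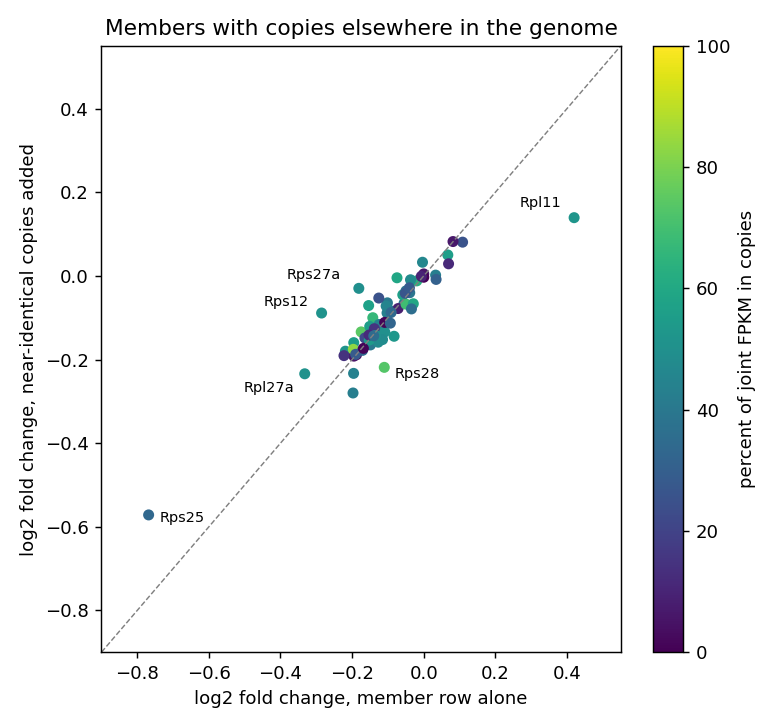
Log2 fold change of each member alone (horizontal axis) against the same with its near-identical copies added (vertical axis), coloured by the percentage of the joint FPKM held in copies. Rpl11 lies farthest from the dashed line of equality, at 0.42 alone and 0.14 with copies, and Rps25 lies at -0.77 and -0.57.

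The stalk recruits the elongation factors. Rplp0 stood at 934 and 1051 FPKM in the knockdown libraries and at 1133 and 1136 FPKM in the controls, without overlap. Its log2 fold change was -0.19 (SE 0.08; limma adjusted p = 0.698), and -0.11 without knockdown replicate 1. Rplp1, at 256 and 322 FPKM against 305 and 298 FPKM, overlapped between the groups (log2 fold change -0.07). Rplp2, at 41.9 and 49.2 FPKM against 51.4 and 51.0 FPKM, did not (-0.17, and -0.06 without knockdown replicate 1). Rpl12, at the base of the stalk, differed little, at 29.3 and 30.1 FPKM against 30.4 and 29.8 FPKM (-0.02). All 4 were below 0, with a median of -0.12, and 2 were without knockdown replicate 1.

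The exit tunnel is the channel through which the new protein leaves the large subunit. Rpl4 stood at 852 and 868 FPKM in the knockdown libraries and at 1002 and 957 FPKM in the controls, without overlap, with a log2 fold change of -0.19 (SE 0.07; limma adjusted p = 0.692). Of the 9 tested genes of the tunnel and its rim, Rpl4, Rpl17, Rpl19, Rpl22, Rpl23a, Rpl26, Rpl31, Rpl35 and Rpl39, 7 were below 0, with a median of -0.05, and 3 were without knockdown replicate 1. Rpl22 and Rpl26 had log2 fold changes of 0.00017 and 0.11. Rpl26 overlapped between groups, with its lowest and highest values, 96.4 and 131 FPKM, both in the controls.

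The small-subunit genes that line the messenger RNA path and decoding site, among them Rps2, Rps3, Rps15, Rps23, Rps26 and Rps28, were all below 0, with a median of -0.12, and 3 of the 7 did not overlap, where 16.3% of all genes and 37.5% of the members lay below both controls. Rps26 stood at 77.5 and 92.8 FPKM in the knockdown libraries and at 98.4 and 95.4 FPKM in the controls (-0.19). Rps3 stood at 98.7 and 113 FPKM against 120 and 118 FPKM (-0.17). Rps9, which sits at the entry of the path, stood at 151 and 182 FPKM against 195 and 193 FPKM, without overlap (log2 fold change -0.22, limma adjusted p = 0.717). Without knockdown replicate 1 the log2 fold changes were -0.06 for Rps26, -0.07 for Rps3 and -0.09 for Rps9. In these 3 genes knockdown replicate 1 was the lowest library, and 4 of the 7 genes of the path were below 0 without it.

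The human counterparts of 18 members are linked to Diamond-Blackfan anaemia, a red cell aplasia. Of these, 16 were below 0, with a median of -0.11, and 5 (27.8%) lay below the controls without overlap, against 16.3% of all genes and 37.5% of the members. Against the control mean, their median stood at -0.22 for the first knockdown library and at 0.02 for the second, where 7 were below 0. Rps19, the gene most often affected, stood at 62.7 and 75.6 FPKM in the knockdown libraries and at 76.9 and 72.4 FPKM in the controls, with overlap (-0.11). Rpl15 was among those without overlap, at 105 and 104 FPKM against 123 and 117 FPKM (log2 fold change -0.20, limma adjusted p = 0.701). Here the knockdown replicates matched each other.

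Paralogues of narrow expression were near or at 0, with one exception. Rpl3l (chr17:24727820-24736143, plus strand, GRCm38) was listed at 0 in both knockdown libraries and at 0.034 and 0.28 FPKM in the controls, below the filter and so not tested. Rpl3, its general counterpart, stood at 206 and 225 FPKM in the knockdown libraries and at 225 and 218 FPKM in the controls, with overlap (log2 fold change -0.04, SE 0.09, limma adjusted p = 0.949). Rpl10l, known from the testis, was listed at 0 in every library, and Rpl39l, also known from the testis, at 0.439 FPKM in knockdown replicate 1 and at 0 in the others. Rps27l, a p53-inducible paralogue of Rps27, was the exception and the fifth most abundant member. It stood at 301.5 and 301.3 FPKM in the knockdown libraries and at 336.5 and 336.2 FPKM in the controls, without overlap and with little spread (log2 fold change -0.16, SE 0.08, limma adjusted p = 0.712). Its fold change was -0.16 without either knockdown replicate.

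Further members are given by their values. Rps4l, an annotated pseudogene, stood at 12.97 and 16.65 FPKM in the knockdown libraries and at 20.79 and 18.07 FPKM in the controls (-0.38, limma adjusted p = 0.698). Rpl27a stood at 25.6 and 34.4 FPKM against 39.3 and 36.1 FPKM (-0.33, limma adjusted p = 0.717). In both genes the groups did not overlap. Without knockdown replicate 1 these log2 fold changes were -0.21 for Rps4l and -0.13 for Rpl27a, and without knockdown replicate 2 they were -0.54 for each. The X-linked members Rps4x, Rpl10, Rpl36a and Rpl39 were all below 0, with a median of -0.02, and Rpl36a alone did not overlap; without knockdown replicate 1, only Rpl36a was below 0. Rps27a, made as a fusion with ubiquitin, had a log2 fold change of -0.18 alone and -0.03 with its copies. Members that host a small nucleolar RNA, 29 in number, had a median of -0.11, and the 51 tested without one had -0.12.

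Promoter sequences from RefSeq (GRCm38.p6) matched 61 of the 83 members. They are shown because the start of the RNA carries the TOP motif that these genes are known for. At the annotated start, 14 of 61 (23.0%) had C followed by 4 bases that are C or T, against 3.01% of 27025 genes. CTTTC or CTTTTC on the sense strand within 20 bases of the start, which can overlap the start motif, was found in 34.4% against 7.91%. CCGGAAG on either strand, anywhere in the 300-base window, was found in 41.0% against 9.93%. CACGTG was found in 9.84% against 8.09%. Below are the 20 bases before and the 10 bases from the start, read 5′ to 3′, with the start base and any unbroken run of C and T from a starting C in capitals.
Rpl15 (chr14:18270977-18271006, minus): ggattgtgggagaaagccttCTTCCTTTCC
Rpl35 (chr2:39005122-39005151, minus): gaagtcggccccgccctttcCTCTTTCTCT
Rps6 (chr4:86857358-86857387, minus): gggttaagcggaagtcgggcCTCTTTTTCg
Rplp2 (chr7:141447631-141447660, plus): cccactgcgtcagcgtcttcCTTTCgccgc
Rps25 (chr9:44407694-44407723, plus): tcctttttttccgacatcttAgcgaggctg
Rpl11 (chr4:136053384-136053413, minus): gcctcctgacccataaggccAcggggccgg
Rpl3l (chr17:24727806-24727835, plus): cagctgagtgttctagctctGtcatttgac
Rpl15, Rpl35, Rps6 and Rplp2 show the run, and Rps25, Rpl11 and the muscle paralogue Rpl3l have none at the start annotated here. Rplp0 and Rpl4, the most abundant members, have none at theirs either, nor does a further annotated start of Rpl3l. Whether the annotated starts are those used in these cells was not tested, and a start placed some bases away can miss the run. Members with the start motif had a median log2 fold change of -0.11 and those without it -0.13.

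Genes that make or regulate ribosomes showed no call either. Ribosomal proteins outside the naming rule (9 tested) had a median log2 fold change of -0.08, with 6 below 0. Set against the control mean, the first knockdown library put these 9 at a median of -0.17, and the second put them at 0.06. Among them Rpl7l1 stood at 94.5 and 85.0 FPKM in the knockdown libraries and at 112 and 97.7 FPKM in the controls, without overlap (log2 fold change -0.22, limma adjusted p = 0.717). The elongation factors and other TOP genes (20 tested) had a median of -0.08 with 15 below 0. Set against the control mean, the first knockdown library put these 20 at a median of -0.13, and the second put them at -0.03. Vim, a TOP gene that encodes an intermediate filament protein, stood at 0.33 (limma adjusted p = 0.607), with Pabpc1, the poly(A)-binding protein, at 0.20. RNA polymerase I genes (19 tested) had a median of 0.00019 with 9 below 0, with Taf1a at 0.42 (limma adjusted p = 0.816) and Polr1c at 0.12. The rRNA processing genes (49 tested) had a median of -0.02 with 27 below 0, from Bop1 at -0.31 to Gar1 at 0.28 among those with the lowest p (limma adjusted p = 0.698 for both). The chaperones of ribosomal proteins (9 tested) had a median of -0.02, with Pdcd2 at -0.29 and Bccip at -0.14. The initiation factors (27 tested) had a median of -0.0030, with Eif3g at -0.35 and Eif3a at 0.31 (limma adjusted p = 0.607 and 0.655). The mTORC1 list (19 tested) had a median of -0.09, with Eif4ebp1, the repressor of cap-dependent initiation, at -0.21 and Myc, an activator of ribosome genes, at 0.37 (limma adjusted p = 0.698 for both). Without knockdown replicate 1, Taf1a stood at 0.75 and Myc at 0.60, and without knockdown replicate 2 they stood at 0.08 and 0.15. Bop1 stood at -0.20 without knockdown replicate 1. Without knockdown replicate 2, Rpl7l1 stood at -0.14, Polr1c at 0.07 and Bccip at -0.07. In each of these lists, 0 genes passed in either direction.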

How the data were processed

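Polyadenylated RNA of 4 libraries was analysed, 2 labelled knockdown and 2 labelled control. The authors deposited FPKM values per gene. Per the submitters' processing notes, StringTie 1.3.3 and HISAT2 2.1.0 were among the tools, beside Trimmomatic 0.36, bcl2fastq 2.19 and SAMtools 1.3, with the mm10 build. Their annotation and any use of strand: not given in the sources used here. GENCODE M21 (GRCm38) gave positions and transcripts.

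The 10900 genes whose mean reached 1 FPKM were fitted with limma 3.58.1 (R 4.3.3, trend on) as log2(FPKM + 1), two-sided, without a block, and p-values were adjusted by Benjamini-Hochberg over all of them at 0.05. The pseudocount of 1 understates changes of low genes. Copies were found with blastn 2.17.0. On simulated data the fit recovered 17.7% of 2-fold and 78.3% of 4-fold changes, and 1.1% of 1.5-fold changes. Depth was read from the steps of single-exon genes: 85.6% to 86.2% of values were whole multiples within 0.1 of a step, where chance gives 20%; multi-exon values were not turned into reads, and no count test was run.

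Members and lists were chosen with earlier results of these data known. Named genes are the role groups; per direction, up to 8 members without overlap with the lowest p; the 4 highest and 4 lowest members; those below the filter; those sharing over 20% of exonic bases; and the 2 lowest p per other list. A few were described at more length after their values were seen. Alternatives covered scaling, pseudocount, filter, trend, transcript length, added copies and each library left out. Some members that this rule names are not reported here.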

Additional observations from a re-analysis of the deposited data

How the results depend on the processing

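With 2 libraries a group, the median 95% half-width of a log2 fold change was 0.29 for the members and 0.48 for all genes tested. On simulated data over 10900 genes, 1.1% of 1.5-fold and 17.7% of 2-fold changes were recovered, so changes of that size were mostly not detectable over all genes. No member was called under any of the settings run, and calls over all genes ranged from 0 without a filter (24969 rows tested) to 15 without knockdown replicate 1, against 6. The median of the members ranged from -0.22 to 0.0016 with 1 library left out, and that of the large subunit from -0.21 to 0.0016. The count below every control kept then ranged from 30 to 75. With all libraries and a median ratio factor, the count below both controls was 46. Rpl3l stood at -1.17 with a pseudocount of 0.1, at -0.044 with a pseudocount of 5, and between -0.36 and -0.048 with 1 library left out. Rpl3l was at 0 FPKM in both knockdown libraries and at 0.034 and 0.28 in the controls, so the size of its fold change follows the pseudocount. The cause of the shifts with 1 library left out was not tested. With the replicate block, the medians and the count of 30 were the same (-0.12 for the members, -0.13 for the large and -0.11 for the small subunit), 0 members and 3 genes in all were called, and 2 members had an unadjusted p under 0.05. Same-numbered libraries did not deviate together (correlation -0.021), so the numbers were not taken as pairs. Pseudocount, filter, trend, block, quantile, ratio and length settings do not bear on the share of FPKM and have no value for it.

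Signs near 0 turned with the scaling. Rpl10 stood at 0.023 with quantile normalization, 0.011 with a fixed sum per library, 0.041 with named pseudogene rows added and 0.033 with near-identical copies added, an alternative chosen after seeing the data. Rpl22 stood at -0.023 with quantile normalization, -0.027 with a median ratio factor, -2.2e-05 with a pseudocount of 0.1, -0.0057 with the transcript length trend removed and -0.0031 with copies added. Rps4x stood at 0.032 with quantile normalization and 0.0079 with a fixed sum, Rpl23a at 0.0084 with quantile normalization, and Rpl13a at -0.029 with a median ratio factor. With 1 library left out, 25 named members turned sign, 22 of them without knockdown replicate 1. Rpl13a, Rpl22 and Rpl26 kept their sign without that library, at 0.065, 0.092 and 0.18. The lowest and highest values of the 25 over the fits with 1 library left out ran as follows: Rpl10 from -0.14 to 0.13, Rpl12 from -0.040 to 0.0013, Rpl13a from -0.065 to 0.065, Rpl17 from -0.12 to 0.043, Rpl19 from -0.28 to 0.0069, Rpl22 from -0.091 to 0.092, Rpl23a from -0.12 to 0.024, Rpl26 from -0.11 to 0.33, Rpl27 from -0.16 to 0.046, Rpl3 from -0.10 to 0.025, Rpl30 from -0.31 to 0.0059, Rpl32l from -0.53 to 0.16, Rpl35a from -0.31 to 0.0019, Rpl39 from -0.19 to 0.11, Rplp1 from -0.24 to 0.094, Rps10 from -0.23 to 0.13, Rps15 from -0.29 to 0.077, Rps19 from -0.25 to 0.018, Rps2 from -0.23 to 0.044, Rps24 from -0.18 to 0.015, Rps27 from -0.28 to 0.033, Rps28 from -0.24 to 0.018, Rps29 from -0.20 to 0.090, Rps4x from -0.081 to 0.068 and Rps6 from -0.13 to 0.022.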
